A study of Mus musculus with 4 samples.

Results

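Glycolysis turns glucose into pyruvate, and the genes of its transporters, enzymes and switches were described in inner ear cells of the mouse grown as primary cultures. The 34 genes were chosen by symbol: glucose and lactate transporters, the enzymes of the 10 steps from hexokinase to pyruvate kinase with their isoforms, the Pfkfb enzymes that set the pace of phosphofructokinase, lactate dehydrogenase, and pyruvate dehydrogenase with the Pdk kinases that switch it off. All 34 were among the 24346 gene symbols of the files, and 33 had a mean of at least 1 FPKM (fragments scaled to transcript length and library size) over the 4 libraries and were tested. RNA sequencing gave 2 libraries from primary cultures of vestibular cells, from the part of the inner ear that senses head movement, and 2 from those of cochlear cells, from the part that senses sound. The labels give no treatment, and the sources used here do not give strain, genotype, age, number of animals or days in culture. Pairs of values give replicates 1 and 2 of a group in that order, the vestibular pair first and the cochlear pair after it. Whether libraries of a group derive from separate cultures or animals is not in the labels. The p-values therefore measure only the spread between these libraries, which may not be that between animals and which includes differences in cell type markers. A pair of libraries stood apart from their replicates by cell type markers: cochlear library 2 had macrophage markers near 0, and vestibular library 2 had low epithelial and high cartilage and melanocyte markers.

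In glycolysis, glucose enters through facilitative transporters, is phosphorylated by hexokinase, is split by aldolase and is oxidised to pyruvate with a gain of ATP. Pyruvate then has a pair of main fates: lactate dehydrogenase reduces it to lactate, which leaves the cell with a proton through monocarboxylate transporters, or pyruvate dehydrogenase carries it into the mitochondrial citric acid (TCA) cycle. Most steps have several isoforms, encoded by different genes, that differ in kinetics and in the tissues that use them. In the cochlea, the glucose transporter gene Slc2a1 is known as a gene of the blood-labyrinth barrier and the stria vascularis.

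At every step of glycolysis, RNA of the leading enzyme gene was higher in the cochlear cultures. For the leading isoform of each of the 10 steps, both cochlear libraries lay above both vestibular libraries, and the ratio of the cochlear to the vestibular mean ran from 1.49 for pyruvate kinase (Pkm) to 2.49 for phosphoglycerate kinase (Pgk1), with a median of 1.63. The 17 genes from hexokinase to pyruvate kinase summed to 4850 and 3821 FPKM in vestibular against 7983 and 6843 FPKM in cochlear libraries. These sums were 0.934% and 0.745% of all FPKM in the vestibular libraries, and 1.55% and 1.43% in the cochlear libraries. A smaller set went the other way. Lactate dehydrogenase B (Ldhb), the monocarboxylate transporter gene Slc16a1 and the enolase gene Eno2 were higher in both vestibular libraries.

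No single gene among these passed the test across all genes. Limma on log2(FPKM + 1), with Benjamini-Hochberg adjustment over 13200 genes and a threshold of 0.05, called 0 of the 33, against 4 of all genes tested (0.0303%), and the adjusted p of the 33 ran from 0.132 to 0.950. At an unadjusted limma p under 0.05 there were 19 of the 33, against 18.2% of all genes tested. Of these, 16 were higher in cochlear cultures, against 10.6% of all genes tested, and 3 in vestibular cultures, against 7.61%. Both cochlear libraries lay above both vestibular libraries in 24 of the 33, a pattern seen in 28.4% of all genes tested, and the reverse held for 3 of the 33, against 26.9%. In 21 of the 33 the gap between the groups was also wider than the difference between replicates of either group, against 21.8% of all genes. The median log2 difference, vestibular minus cochlear, was -0.66 over the 33 and 0.01 over all genes tested. The median over the 33 became -0.46 without vestibular library 2 and -0.54 without cochlear library 1.

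**Figure D1:**
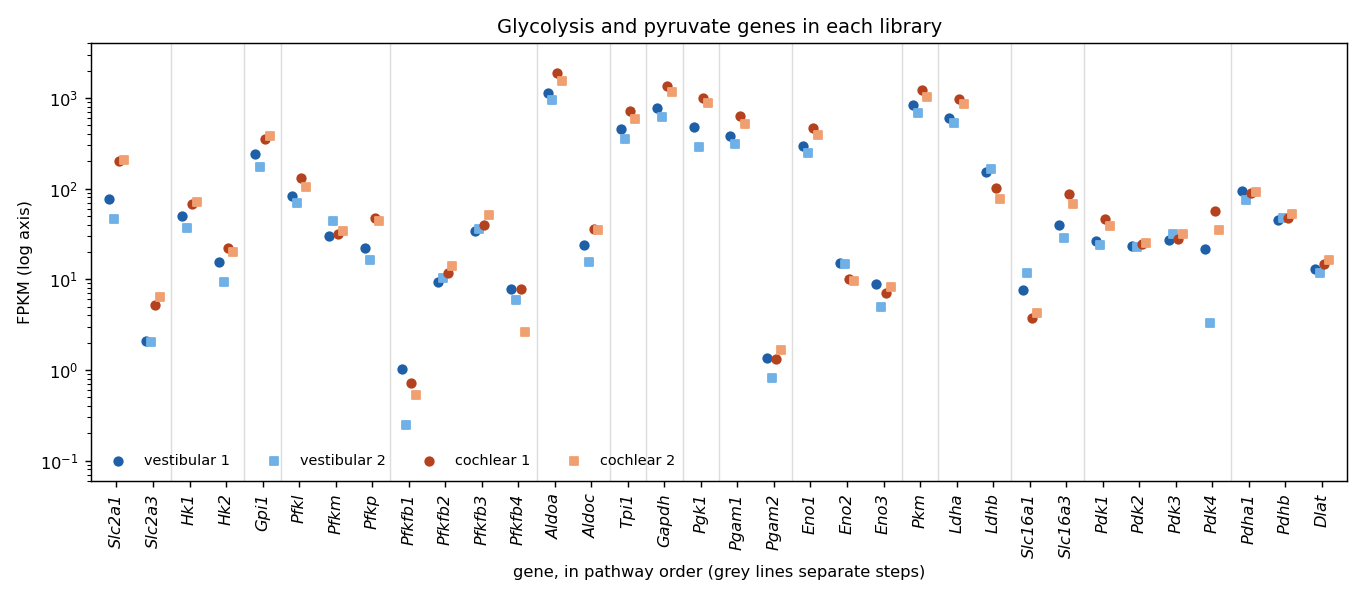
FPKM of the 34 genes on a log axis, in pathway order, with 1 point per library. Cochlear points lie above vestibular points at the leading isoform of each step from hexokinase to pyruvate kinase. The reverse holds for Eno2, Ldhb and Slc16a1.

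Start-site sequence is shown for 2 genes that were much higher in cochlear cultures (Slc2a1, 3.33-fold, and Pgk1, 2.49-fold) and 2 that were higher in vestibular cultures (Slc16a1, 2.43-fold, and Ldhb, 1.79-fold). These 4 have a single start-site window each in the RefSeq table (GRCm38.p6), which runs from 250 bases before to 50 after the start. Capitals mark ACGTG and GCGTG, the core letters that hypoxia-inducible factors bind, on either strand (CACGT and CACGC on the strand shown), and an E-box CACGTG counts as 2 overlapping matches.
Slc2a1, chr4:119108495-119108794, plus strand: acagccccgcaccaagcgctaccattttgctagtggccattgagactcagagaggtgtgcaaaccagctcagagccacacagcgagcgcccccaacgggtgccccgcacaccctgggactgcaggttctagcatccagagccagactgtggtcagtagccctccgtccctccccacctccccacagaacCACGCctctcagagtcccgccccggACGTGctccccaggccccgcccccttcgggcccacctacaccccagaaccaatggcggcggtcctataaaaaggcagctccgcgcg
Pgk1, chrX:106186850-106187149, plus strand: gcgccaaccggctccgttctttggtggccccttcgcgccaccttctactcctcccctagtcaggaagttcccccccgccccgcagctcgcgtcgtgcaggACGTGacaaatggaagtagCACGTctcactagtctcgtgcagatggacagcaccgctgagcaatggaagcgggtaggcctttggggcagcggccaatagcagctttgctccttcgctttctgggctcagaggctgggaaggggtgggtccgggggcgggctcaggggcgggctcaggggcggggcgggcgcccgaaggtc
Ldhb, chr6:142507908-142508207, minus strand: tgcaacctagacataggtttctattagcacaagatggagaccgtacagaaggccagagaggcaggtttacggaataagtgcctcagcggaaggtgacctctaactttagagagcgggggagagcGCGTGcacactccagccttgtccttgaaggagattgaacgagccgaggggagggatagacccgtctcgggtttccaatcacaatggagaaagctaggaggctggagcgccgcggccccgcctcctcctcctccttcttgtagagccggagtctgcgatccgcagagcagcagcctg
Slc16a1, chr3:104638414-104638713, plus strand: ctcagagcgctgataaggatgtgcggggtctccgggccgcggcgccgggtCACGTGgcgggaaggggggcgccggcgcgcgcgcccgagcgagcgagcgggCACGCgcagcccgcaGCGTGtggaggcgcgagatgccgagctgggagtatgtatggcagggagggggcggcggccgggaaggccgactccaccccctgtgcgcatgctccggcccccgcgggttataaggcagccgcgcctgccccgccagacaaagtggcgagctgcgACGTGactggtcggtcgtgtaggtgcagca

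The Slc2a1 and Pgk1 windows held 2 matches each, the Ldhb window 1 and the Slc16a1 window 5, of which 2 formed the E-box. In Slc2a1 the match nearest the start began 36 bases before it, and in Pgk1 131 bases before it. Of the 52 windows of 33 of the genes, 38 (73.1%) held at least 1 match, against 43.8% of all windows and 61.0% of the windows of genes tested. The letters thus occurred in genes of both directions, and a match is a description of the sequence, not a binding site.

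RNA of the glucose transporter genes showed some of the widest gaps. Slc2a1, which encodes the widely used transporter GLUT1, stood at 77.0 and 46.0 FPKM in vestibular against 202 and 207 FPKM in cochlear libraries. Both cochlear libraries were close together and well above either vestibular library, and the log2 difference was -1.77 (SE 0.28, limma adjusted p 0.137). Slc2a3, the gene of the high-affinity transporter GLUT3, stood at 2.09 and 2.01 against 5.19 and 6.44 FPKM, with a log2 difference of -1.15 (SE 0.18, limma adjusted p 0.132). Although both transporters were higher in cochlear cultures, the balance between them hardly moved. Slc2a1 held 97.4% and 95.8% of their summed FPKM in the vestibular libraries and 97.5% and 97.0% in the cochlear libraries.

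Hexokinase traps glucose in the cell as glucose 6-phosphate. Hk1, the housekeeping isoform, stood at 49.9 and 36.9 FPKM in vestibular against 67.9 and 70.6 FPKM in cochlear libraries. Hk2, the isoform typical of insulin-sensitive and fast-growing cells, stood at 15.6 and 9.27 against 22.4 and 19.8 FPKM. Both were higher in both cochlear libraries, with log2 differences of -0.68 (SE 0.18) for Hk1 and -0.76 (SE 0.28) for Hk2. Hk1 held from 75.2% to 79.9% of the hexokinase sum in the 4 libraries, and the groups overlapped in this share. Gpi1, the glucose-6-phosphate isomerase gene, stood at 239 and 173 against 354 and 381 FPKM, again without overlap.

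Phosphofructokinase commits sugar to glycolysis, and its isoforms did not move together. The liver-type gene Pfkl, the most abundant, stood at 82.2 and 70.2 FPKM in vestibular against 131.9 and 105 FPKM in cochlear libraries. The platelet-type gene Pfkp stood at 22.3 and 16.1 against 47.6 and 44.0 FPKM, a cochlear mean 2.38-fold above the vestibular mean (log2 difference -1.22, SE 0.19, limma adjusted p 0.134). The muscle-type gene Pfkm stood at 29.97 and 43.7 against 31.5 and 34.1 FPKM, and its groups overlapped. Pfkp therefore made up 23.3% ± 0.992 of the phosphofructokinase sum in cochlear against 14.5% ± 2.95 in vestibular cultures (mean ± SD, n = 2 per group), while Pfkm made up 16.8% ± 2.60 and 27.9% ± 8.0. Pfkp exceeded Pfkm in both cochlear libraries and lay below it in both vestibular libraries, with Pfkp to Pfkm ratios of 0.745 and 0.370 in vestibular and 1.51 and 1.29 in cochlear libraries. The difference in the Pfkm share, 11.2 percentage points, was 5.52 without vestibular library 2. Markers of skeletal muscle, the tissue that uses Pfkm, Pgam2 and Eno3 most, summed to between 1.72 and 3.54 FPKM over 10 genes in the 4 libraries, and Myod1, Myog and Myh8 were listed at 0 in all.

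The Pfkfb enzymes make and break fructose 2,6-bisphosphate, the strongest activator of phosphofructokinase. Pfkfb3, the isoform with the highest kinase activity, was the most abundant and stood at 33.7 and 36.1 FPKM in vestibular against 39.5 and 50.7 FPKM in cochlear libraries. Its gap of 1.29-fold between means was narrower than that of any leading enzyme of the 10 steps. Pfkfb2, the heart-type isoform, stood between 9.27 and 13.97 FPKM in the 4 libraries, with both cochlear libraries higher. Pfkfb4 stood at 7.77 and 5.94 against 7.73 and 2.60 FPKM, so its groups overlapped, and its log2 difference of 0.48 became -0.16 without cochlear library 2. Pfkfb1, the liver and muscle gene, stood at 1.03 and 0.246 against 0.723 and 0.530 FPKM and was not tested because its mean lay under 1 FPKM.

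Aldoa, the main aldolase gene, was the most abundant of the 34. It stood at 1139 and 938 FPKM in vestibular against 1866 and 1548 FPKM in cochlear libraries, which placed it 41st and 50th of all genes in the vestibular and 20th and 18th in the cochlear libraries. Aldoc, the brain-type isoform, stood at 24.04 and 15.6 against 36.0 and 35.3 FPKM. Both aldolase genes were higher in both cochlear libraries, and the Aldoa share stayed between 97.8% and 98.4%. Triosephosphate isomerase (Tpi1) stood at 450.0 and 357 against 712 and 589 FPKM, without overlap.

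The energy-yielding steps below aldolase followed the same order of libraries. Gapdh, the glyceraldehyde-3-phosphate dehydrogenase gene that is often used as a loading reference, stood at 784 and 614 FPKM in vestibular against 1348 and 1171 FPKM in cochlear libraries. The gap of 1.80-fold between its means had a log2 difference of -0.86 (SE 0.20, limma adjusted p 0.204). Pgk1, which makes the first ATP of the pathway, stood at 475 and 286 against 1012 and 885 FPKM, the widest gap among the leading isoforms of the 10 steps (log2 difference -1.36, SE 0.30, limma adjusted p 0.189). Phosphoglycerate mutase 1 (Pgam1) stood at 379 and 310 against 629 and 520.0 FPKM. The muscle isoform Pgam2 stood at 1.35 and 0.809 against 1.32 and 1.68 FPKM, and its groups overlapped.

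Enolase was the step from hexokinase to pyruvate kinase where an isoform was higher in both vestibular libraries. Eno1, the widespread isoform, stood at 299 and 246 FPKM in vestibular against 467 and 394 FPKM in cochlear libraries. Eno2, the isoform typical of neurons and neuroendocrine cells, stood at 15.2 and 14.8 against 9.96 and 9.47 FPKM. Eno2 replicates were close together and the groups apart, with both vestibular libraries higher (log2 difference 0.58, SE 0.11, limma adjusted p 0.160). Eno2 held 5.14% ± 0.618 of the enolase sum in vestibular against 2.18% ± 0.171 in cochlear cultures (mean ± SD, n = 2 per group). Neuron markers summed over 8 genes to 16.8 and 11.6 against 4.28 and 2.69 FPKM. Of these, 6 (Snap25, Syt1, Rbfox3, Nefl, Nefm and Elavl4) were under 1 FPKM in every library, and Stmn2 and Tubb3 made up most of the sum. The part of neurons in the Eno2 values was not tested. Eno3, the muscle isoform, stood at 8.89 and 4.96 against 7.04 and 8.27 FPKM, and its groups overlapped. A near-identical copy of Eno1, listed as Eno1b, stood at 221 and 134 against 443 and 304 FPKM, so the Eno1 values depend on how reads were split between them. The sum of the pair was 519.9 and 380 against 910.1 and 698 FPKM, with the same order as Eno1 alone. The enolase sum used for the shares leaves out Eno1b, and the Eno2 share of a sum with it would be lower in every library. Pkm, which closes the pathway, stood at 837 and 684 against 1240 and 1026 FPKM, the narrowest gap among the 10 steps (log2 difference -0.57, SE 0.20). The files give 1 value per gene, so the M1 and M2 splice forms of Pkm were not separated.

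**Figure D2:**
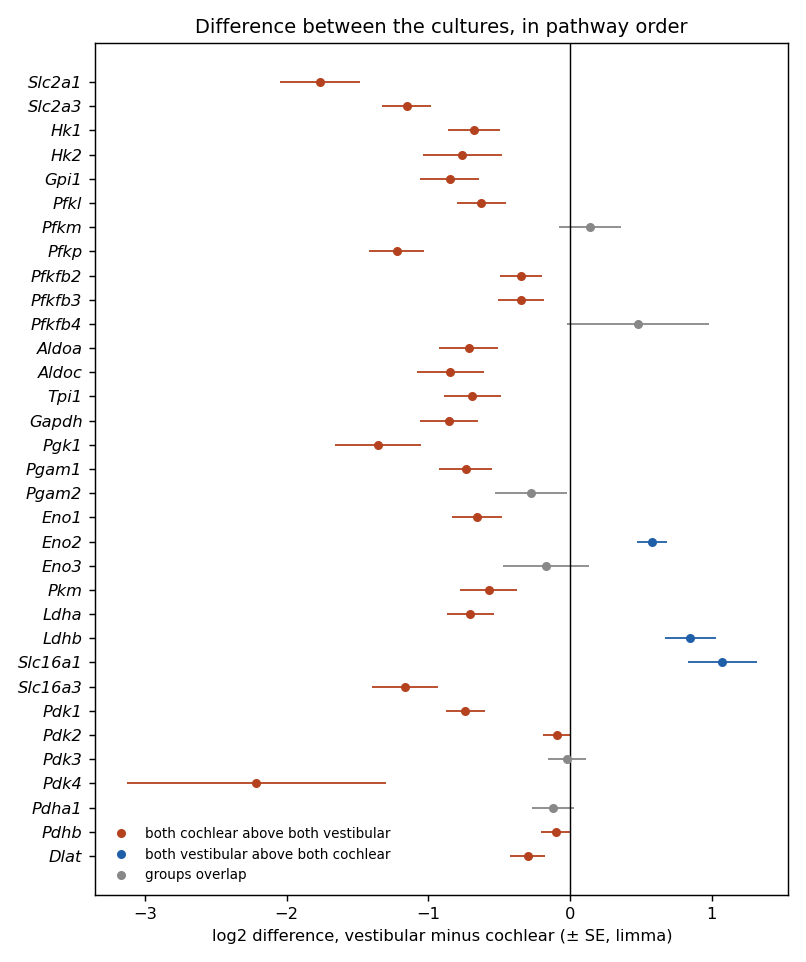
Log2 difference (vestibular minus cochlear, on the log2(FPKM + 1) scale) for the 33 genes tested, with bars of 1 SE from limma, in pathway order from top to bottom. The leading enzymes cluster near -0.7, Slc2a1 and Pgk1 lie further to the left, and Eno2, Ldhb and Slc16a1 lie to the right of 0 with groups that do not overlap.

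At the lactate end of the pathway, the isoforms lay in opposite directions. Ldha, the subunit of muscle-type lactate dehydrogenase that favours pyruvate reduction, stood at 602 and 524 FPKM in vestibular against 980 and 856 FPKM in cochlear libraries (log2 difference -0.70, SE 0.17, limma adjusted p 0.203). Ldhb, the heart-type subunit that favours lactate oxidation, stood at 151 and 166 against 101 and 76.3 FPKM (log2 difference 0.85, SE 0.18, limma adjusted p 0.186). Neither gene overlapped between the groups. The ratio of Ldha to Ldhb was 3.98 and 3.16 in vestibular against 9.73 and 11.2 in cochlear libraries. Ldhb made up 22.1% ± 2.82 of their sum in vestibular against 8.75% ± 0.800 in cochlear cultures (mean ± SD, n = 2 per group). This share does not depend on how libraries were scaled, and the difference in the Ldha share ran from -15.3 to -11.3 percentage points on leaving out each library in turn.

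The lactate transporters also lay in opposite directions. Slc16a3, the gene of the transporter MCT4 found in cells that release much lactate, stood at 39.8 and 28.5 FPKM in vestibular against 87.2 and 67.9 FPKM in cochlear libraries (log2 difference -1.17, SE 0.23, limma adjusted p 0.175). Slc16a1, the gene of the higher-affinity transporter MCT1, stood at 7.61 and 11.7 against 3.72 and 4.23 FPKM (log2 difference 1.07, SE 0.24, limma adjusted p 0.192). The ratio of Slc16a3 to Slc16a1 was 5.23 and 2.44 in vestibular against 23.5 and 16.1 in cochlear libraries. Slc16a3 led in every library, and Slc16a1 made up 22.6% ± 9.18 of the sum in vestibular against 4.97% ± 1.26 in cochlear cultures (mean ± SD, n = 2 per group). That difference of 17.6 percentage points was 11.1 without vestibular library 2 and 24.1 without vestibular library 1.

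**Figure D3:**
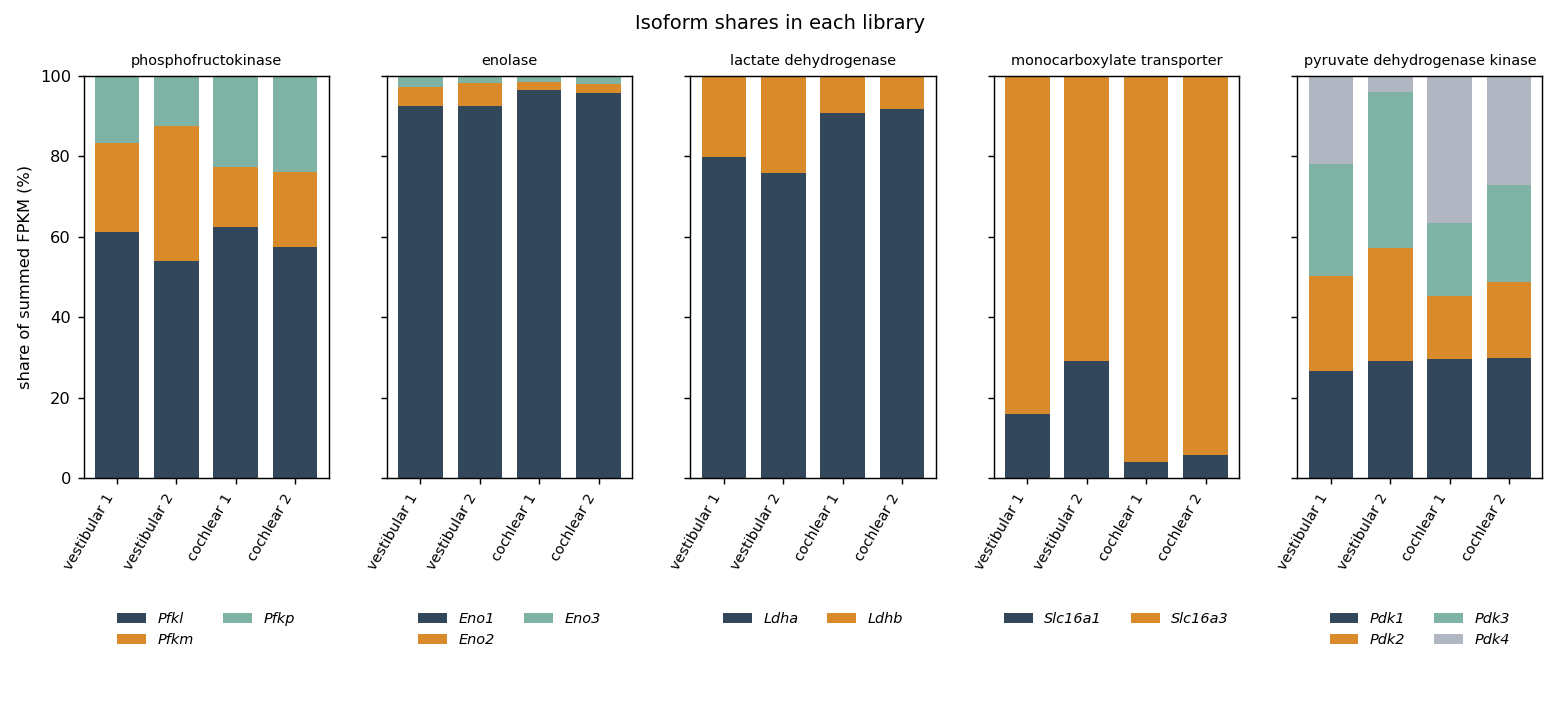
Share of each isoform in the summed FPKM of its step, in percent, for 5 steps and the 4 libraries. Ldhb, Slc16a1, Eno2 and Pfkm take larger shares in both vestibular libraries, and Pdk4 takes from 4.09% in vestibular library 2 to 36.7% in cochlear library 1.

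At the entry of pyruvate into mitochondria, Pdk1 and Pdk4 were higher in both cochlear libraries, Pdk4 with vestibular replicates far apart. Pdk2 and Pdk3 were at similar levels in all 4 libraries. Pdk1, a hypoxia-inducible kinase that inhibits pyruvate dehydrogenase, stood at 26.3 and 23.6 FPKM in vestibular against 45.7 and 39.0 FPKM in cochlear libraries (log2 difference -0.74, SE 0.14, limma adjusted p 0.158). Pdk4, the kinase of fasting and fat oxidation, stood at 21.6 and 3.31 against 56.6 and 35.4 FPKM. It had the lowest log2 difference of the 33 genes (-2.22, SE 0.91, limma adjusted p 0.316), but its vestibular libraries differed by more than the gap between the groups, and the value was -1.02 without vestibular library 2 and -3.41 without vestibular library 1. Pdk2 stood at 23.2 and 22.7 against 24.3 and 24.8 FPKM, and Pdk3 between 27.2 and 31.6 FPKM with overlapping groups. The 4 kinases thus had no single leader: Pdk3 had the highest level in both vestibular libraries, and Pdk4 in cochlear library 1 and Pdk1 in cochlear library 2.

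The 3 genes of the pyruvate dehydrogenase complex had log2 differences between -0.30 and -0.10. Pdha1, the catalytic subunit that the Pdk kinases phosphorylate, stood at 93.1 and 74.8 FPKM in vestibular against 89.98 and 92.1 FPKM in cochlear libraries (log2 difference -0.12, SE 0.15). Pdhb, its partner subunit, stood between 45.5 and 52.3 FPKM, and Dlat, the acetyltransferase core, between 11.7 and 16.3 FPKM. The ratio of Ldha to Pdha1 was 6.47 and 7.004 in vestibular against 10.9 and 9.29 in cochlear libraries. The ratio of Pdk1 to Pdha1 was 0.282 and 0.316 against 0.508 and 0.423. Both ratios were higher in both cochlear libraries.

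Over 20 isoform shares compared, the smallest exact permutation p (2-sided) was 0.333, the lowest that 2 libraries against 2 allow, and the smallest Benjamini-Hochberg adjusted value was 0.667. No share can therefore be called by that test. The shares of hexokinase, aldolase, phosphoglycerate mutase and glucose transporter isoforms overlapped between the groups, as did those of Pfkl, Eno3 and the Pfkfb genes. Those of Ldha, Slc16a1, Pfkm, Pfkp, Eno1, Eno2 and the 4 Pdk genes did not. Among FPKM values of all genes tested, 28.4% lay without overlap with cochlear higher and 26.9% with vestibular higher. Shares of a step are also tied to each other, because they sum to a fixed total.

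Many of the genes shared an order of libraries, but how many of all genes tested share it was not counted. Of the 33 genes tested, 24 were lowest in vestibular library 2, and 15 ran in the order vestibular 2, vestibular 1, cochlear 2, cochlear 1. A further 6 (Slc2a1, Slc2a3, Hk1, Gpi1, Pdk2 and Dlat) had the cochlear libraries the other way round. The glucose transporters, Hk1 and Gpi1 were thus highest in cochlear library 2, and the leading isoforms from Pfkl to Pkm in cochlear library 1. For the leading isoforms, vestibular library 1 lay above vestibular library 2 at each step, by 0.23 for Pfkl to 0.73 for Pgk1 on the log2 scale.

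Neighbouring pathways had medians nearer to 0. The 17 genes of the TCA cycle, all tested, had a median log2 difference of -0.03 and a range from -0.31 to 0.24. Limma called 0 of them, and 1 had an unadjusted p under 0.05: citrate synthase (Cs), which condenses acetyl-CoA with oxaloacetate, at 64.5 and 64.0 against 77.7 and 79.0 FPKM. Genes of mitochondrial pyruvate entry other than those above (8 tested) had a median of 0.03, with 0 at an unadjusted p under 0.05. The phosphatase gene Pdp1, which reverses the action of the Pdk kinases, stood at 15.3 and 6.62 against 5.95 and 3.3 FPKM. The pentose phosphate genes (7 tested) had a median of 0.18, with Pgd, the second dehydrogenase of that pathway, at 95.6 and 102 against 74.7 and 51.3 FPKM and the transketolase gene Tkt at 68.0 and 71.2 against 86.4 and 80.2. Genes of the shuttles that carry NADH electrons into mitochondria (8 tested) had a median of -0.12. Among them the aspartate-glutamate carrier gene Slc25a12 stood at 22.7 and 22.3 against 16.6 and 18.2 FPKM. Whether these lists differ from glycolysis was not tested.

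Glycogen genes (9 tested) had a median of -0.33. An unadjusted limma p under 0.05 was seen in 4 (44.4%, against 18.2% of all genes tested), 3 of them higher in cochlear cultures. Muscle-type glycogen synthase (Gys1) stood at 24 and 14.3 FPKM in vestibular against 44.1 and 43.9 FPKM in cochlear libraries. The branching enzyme gene Gbe1 stood at 14.5 and 10.1 against 20.6 and 31.3, and Pgm2, a phosphoglucomutase gene, at 51.2 and 37.6 against 69.2 and 74.9. The fourth, the brain-type glycogen phosphorylase gene Pygb, was higher in vestibular cultures, at 65.2 and 81.4 against 50 and 53.6 FPKM. Regulators of the pathway (15 tested) had a median of -0.22. At an unadjusted limma p under 0.05 there were 4 (26.7%, against 18.2% of all genes tested), all higher in cochlear cultures. The oxygen-sensing prolyl hydroxylase genes Egln1 and Egln3, themselves hypoxia-inducible, stood at 33.5 and 33.1 against 66.4 and 60.6 FPKM, and at 22.8 and 47.6 against 108 and 90 FPKM. Mlx, a partner of the glucose-sensing factor ChREBP, stood at 16.6 and 17.2 against 20.8 and 23.9, and the third prolyl hydroxylase gene, Egln2, at 32.4 and 31.4 against 38.6 and 39.3. Hif1a, the hypoxia-inducible factor gene, whose protein rather than RNA is set by oxygen, stood at 53.7 and 53.8 against 52.1 and 60.9 FPKM. Of the 15 regulators, 7 were higher in both cochlear libraries, against 28.4% of all genes tested. The reverse held for 2, against 26.9%: Epas1, at 15.7 and 43.5 against 12.9 and 11.3 FPKM, and Foxk1, at 9.71 and 10.7 against 8.24 and 8.52. Hif1a, Epas1 and Foxk1 were named after their values were seen.

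Isozymes of the same steps outside the 34 genes were mostly low: 8 of 17 were tested, with a median of 0.09 and 1 at an unadjusted p under 0.05. That gene was Adpgk, the ADP-dependent glucokinase, at 17.6 and 21.4 against 14.6 and 11.5 FPKM. Hk3, the hexokinase of white blood cells, stood at 24.6 and 11 against 28.3 and 0.0959 FPKM, the last value being cochlear library 2, and was also named after its values were seen.

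**Figure D4:**
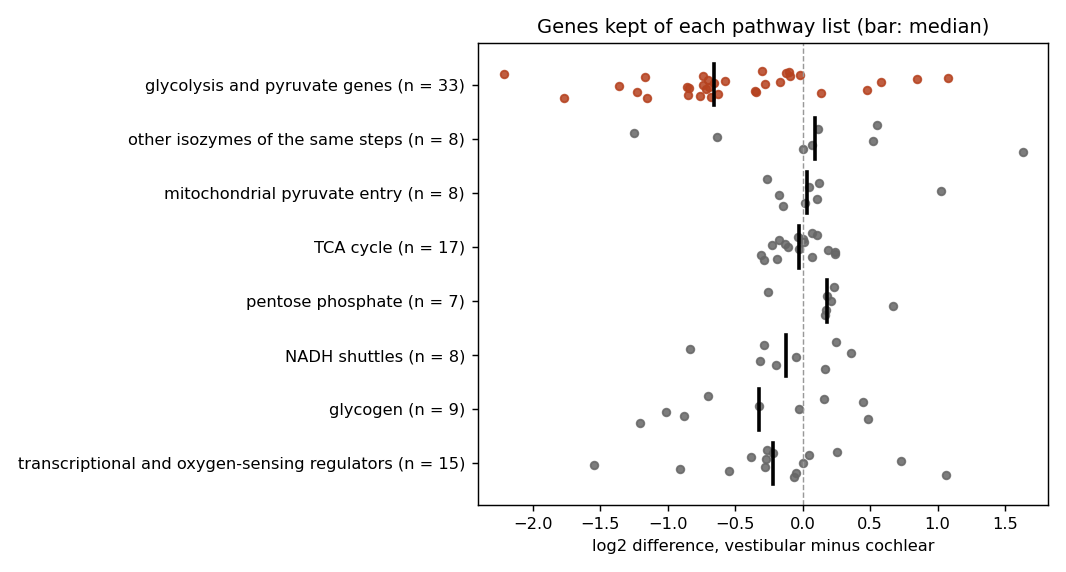
Log2 difference (vestibular minus cochlear) of each gene tested in the glycolysis and pyruvate set and in 7 neighbouring lists, with 1 point per gene and a bar at the median. The glycolysis median lies at -0.66, the TCA cycle genes lie between -0.31 and 0.24, and the other medians run from -0.33 to 0.18.

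Markers of other cell types also differed between the libraries, and in bulk RNA fewer cells of a type and less RNA per cell cannot be told apart. Both cochlear libraries lay above both vestibular libraries in 11 of 12 epithelial markers, against 28.4% of all genes tested. These markers summed to 1068 and 110 FPKM in vestibular against 2100 and 2532 FPKM in cochlear libraries. Vestibular library 2 was lowest both in this sum and in the glycolytic sum. Fibroblast markers ran the other way, at 3045 and 6293 against 1426 and 935 FPKM. Of these, 8 of 10 were higher in both vestibular libraries, against 26.9% of all genes tested. Cartilage markers (10 genes, Matn1 and Hapln1 under 1 FPKM in every library) summed to 815 and 4937 against 255 and 271 FPKM, and melanocyte markers (6 genes) reached 226 FPKM in vestibular library 2 and at most 2.95 in the others. The part of these cells in the glycolytic difference was not tested.

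Macrophage markers were near 0 in cochlear library 2, whose glycolytic sum was 6843 FPKM against 7983 in cochlear library 1. The 13 macrophage genes summed to 8984 and 6821 against 6908 and 30.1 FPKM. Ptprc, Csf1r and Adgre1 were near 0 in cochlear library 2. The median log2 difference of the glycolysis and pyruvate genes was -0.78 without cochlear library 2 and -0.54 without cochlear library 1, and -0.46 without vestibular library 2. Proliferation genes (8 tested) had a median log2 difference of -0.01. Defining hair cell markers were low, with Slc17a8, Tmc1, Gfi1, Atoh1 and Pvalb under 1 FPKM in every library and only Myo7a tested among 9. Of 6 endothelial genes, Pecam1 and Tie1 were under 1 FPKM in every library, Cldn5 was listed at 0 in all, and the other 3 were tested. Cdh5 stood at 0.915 and 10.7 FPKM in vestibular against 0.293 and 0.0955 FPKM in cochlear libraries. Kdr stood at 4.85 and 0.808 against 1.39 and 2.51 FPKM, and Tek at 1.83 and 2.58 against 1.57 and 6.002 FPKM. Globin genes were listed at 0.

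**Figure D5:**
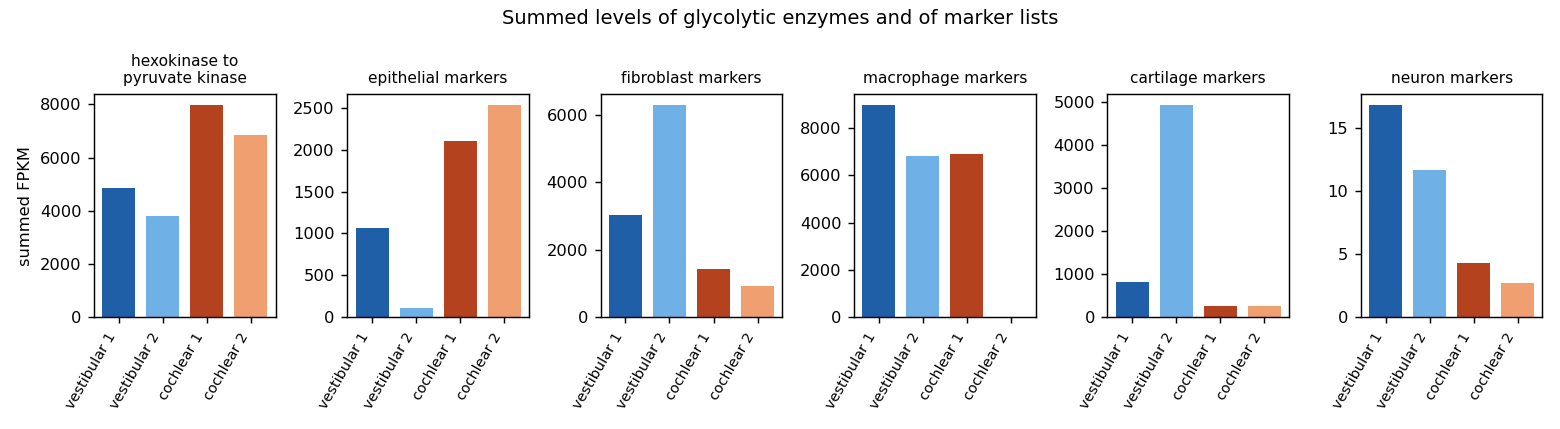
Summed FPKM of the 17 genes from hexokinase to pyruvate kinase and of 5 marker lists, with 1 bar per library and a separate axis from 0 in each panel. Epithelial markers are lowest and cartilage markers highest in vestibular library 2, and macrophage markers are near 0 in cochlear library 2, where the glycolytic sum is 6843 FPKM.

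Some values depend on how reads were assigned. In the GENCODE M21 annotation (GRCm38), 9 of the 34 genes share exon sequence with a gene of the other strand that is also in the files, among them Gapdh (Iffo1), Aldoa (Fam57b), Tpi1 (Spsb2), Pfkm (Senp1), Pfkp (Pitrm1) and Pdha1 (Map3k15). The sources used here do not say whether strand was used in counting. The annotation also names pseudogenes of Aldoa, Gapdh, Pgk1, Pgam1 and Ldha, to which reads may have been shared. Slc2a1 spans chr4:119108711-119137983, Slc16a3 chr11:120948480-120960868 and Ldha chr7:46841475-46855627, each on the plus strand, and Ldhb spans chr6:142490249-142507957 on the minus strand. All are protein-coding, and none of these 4 shares exons with another gene in the files.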

How the data were processed

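RNA was taken up in TRIzol and sequenced from TruSeq stranded mRNA libraries, per the labels' protocols. The deposited values are FPKM, 1 per gene symbol and library, per the file headers. Per the submitters' processing notes, the build was mm10 and the tools were Cuffdiff 2.2.1, SAMtools 0.1.18, TopHat2 2.1.1 and Bowtie2 2.2.8. The sources used here do not give their settings, the annotation or any scaling between libraries. FPKM totals ran from 479380 to 519122, the number of fragments is unknown, and no counting interval is given. FPKM is per length, so genes of a library can be set side by side.

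Genes with a mean of at least 1 FPKM were kept (13200). Log2(FPKM + 1) values went into limma 3.58.1 (R 4.3.3: lmFit, eBayes with trend, 2-sided, Benjamini-Hochberg, threshold 0.05). On this scale differences of low genes are understated. The fit was also run on simulated data. The differences planted there were larger than nearly all of those of the glycolysis and pyruvate genes, so the simulation does not cover differences of this size. Isoform shares are percentages of a step's summed FPKM, compared by exact permutation over libraries. Full values are given for the leading isoform of each step, for genes at an unadjusted p under 0.05 and for genes without overlap and a log2 difference of at least 0.5 in size. Of each pathway list, genes with the smallest p were named. The genes, lists and ratios were chosen with earlier results of these data known. Alternatives were another pseudocount, no filter, other scalings, no trend, a replicate block and leaving out each library.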

Additional observations from a re-analysis of the deposited data

How the results depend on the processing

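Of the 33 genes, 28 kept their direction in all 10 alternatives, and no gene passed the threshold in any (lowest limma adjusted p 0.0987). Direction changed only on leaving out a library, for Pdk3 (range -0.117 to 0.0776 on the log2 scale), Pfkm (-0.12 to 0.40), Eno3 (-0.53 to 0.20), Pdha1 (-0.280 to 0.0325) and Pfkfb4 (-0.16 to 1.11). The cause was not tested. The median over the 33 ran from -0.80 to -0.46 and their number at an unadjusted p under 0.05 from 9 to 21 on leaving out each library, and the number of all genes at that level from 1019 to 2720. The 4 calls over all genes became 0 on leaving out any library, where a lone library was assumed to vary like the other group, 2 with no filter on low values and 0 with the replicate block. No label says that the replicate numbers pair the libraries, and same-numbered libraries deviated together with a correlation of 0.04 across genes. With the block 22 of the 33 had an unadjusted limma p under 0.05, against 19 without it. Over all genes tested, 1887 were at that level with the block and 2398 without it. Of 20 isoform shares, 13 kept their direction on leaving out each library. The others lay between -1.42 and 0.11 percentage points (Slc2a1), -0.40 and 3.29 (Hk1), -5.99 and 1.15 (Pfkl), -0.53 and 0.98 (Pfkfb1), -7.94 and 0.56 (Pfkfb3), -0.0063 and 0.42 (Aldoa), and -0.098 and 0.014 (Pgam1). With 2 libraries a group and unknown depth, differences of this size could not be called.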
